A study of Homo sapiens with 14 samples.

Results

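The copies described here are 2822 annotated stretches of endogenous retrovirus in the human genome that belong to the MER4 group (1905 copies) or the MER41 group (917 copies) of the ERV1 family. They were chosen by name and strand among copies with RNA counted on their strand in at least 1 library, and no level or difference was used. A copy was kept if its RepeatMasker name was MER4-int, MER4 followed by a capital letter, or began with MER41. They fall into 20 subfamilies and make up 2822 of 579614 sense-strand loci of transposable elements (TEs) in the tables. The ERV1 family had a further 17412 such loci.

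RNA came from 14 polyA-selected, stranded libraries of A375, an established human melanoma cell line, in 5 groups. In the bulk experiment, A375 populations were transiently transfected and selected with an antibiotic. The control group (bulk control, n = 3) received a vector with Cas9 and no guide RNA, and the edited group (bulk CRISPR, n = 3) received Cas9 with a guide against ZC3H18 (Z18), so that edited and unedited cells are mixed. In the allelic series, each library is a different single-cell clone that went through transfection, selection and limiting dilution: WT clones (n = 2, empty vector), -/+ clones (n = 3) with a loss-of-function mutation on 1 allele of Z18, and trunc/+ clones (n = 3) with a truncating mutation on 1 allele. By the methods, 1 trunc/+ clone was made by homology-directed repair and 2 carry other truncating mutations. The labels used here do not say which library is which, so the 3 were taken as 1 group. Clone and genotype cannot be told apart for any single library, and p-values measure the spread between these libraries only.

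An ERV begins as an integrated provirus: internal sequence that codes for viral proteins (the -int copies) between a pair of long terminal repeats (LTRs), which carry a promoter and a polyadenylation signal. Most copies today are solitary LTRs or broken pieces. MER41 LTRs are known as elements that interferon-activated STAT proteins can bind, and MER4 LTRs are known to be used as alternative gene ends and promoters. Z18 is a CCCH zinc-finger protein that links capped nuclear RNA to the surveillance machinery, in which the NEXT complex hands RNA to the exosome for degradation. The comparisons ask whether RNA of these copies differed between Z18-edited and control cells.

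The sequences below are stretches of MER4-int copies in the chromosome 14 window, the MER41C copy upstream of NUP50, and a MER41E LTR shown for the STAT-type palindrome it holds. The earlier MER4-int copy and the MER41C copy were among those with the smallest p in the trunc/+ comparisons. The last MER4-int copy of the window had too few counts for any test. All were read from the hg38 build, 5′ to 3′ on the strand of the copy. Capitals mark AATAAA in the MER4-int stretches and TTCNNNGAA in the MER41E stretch, with N for any base. The MER41E stretch also holds AATAAA once, left in lower case. The AATAAA hexamer is the common polyadenylation signal and was searched on the strand of the copy, while TTCNNNGAA is its own reverse pattern and covers both strands. They come, in this order, from chr14:105034048-105034347 (plus strand), chr14:105039598-105039897 (plus strand), chr22:45162545-45162810 (plus strand) and chr1:16894413-16894712 (minus strand).
MER4-int on chromosome 14, smallest p for trunc/+ against WT: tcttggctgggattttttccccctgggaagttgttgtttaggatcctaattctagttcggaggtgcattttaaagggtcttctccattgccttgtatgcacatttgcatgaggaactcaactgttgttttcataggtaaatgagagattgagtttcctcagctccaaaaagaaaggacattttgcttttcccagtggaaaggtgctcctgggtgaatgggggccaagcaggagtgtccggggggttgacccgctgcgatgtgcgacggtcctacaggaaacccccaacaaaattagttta
MER4-int on chromosome 14, last copy of the window: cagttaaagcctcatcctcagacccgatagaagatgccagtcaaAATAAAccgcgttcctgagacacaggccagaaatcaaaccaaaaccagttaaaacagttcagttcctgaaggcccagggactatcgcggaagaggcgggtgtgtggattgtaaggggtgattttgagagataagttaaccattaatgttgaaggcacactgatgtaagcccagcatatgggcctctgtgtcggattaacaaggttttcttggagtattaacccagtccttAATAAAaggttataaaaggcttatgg
MER41C upstream of NUP50: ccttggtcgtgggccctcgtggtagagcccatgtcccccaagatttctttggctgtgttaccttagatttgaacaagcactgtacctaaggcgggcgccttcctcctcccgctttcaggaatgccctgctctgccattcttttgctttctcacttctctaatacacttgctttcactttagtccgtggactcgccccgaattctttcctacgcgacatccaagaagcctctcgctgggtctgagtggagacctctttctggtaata
MER41E on chromosome 1: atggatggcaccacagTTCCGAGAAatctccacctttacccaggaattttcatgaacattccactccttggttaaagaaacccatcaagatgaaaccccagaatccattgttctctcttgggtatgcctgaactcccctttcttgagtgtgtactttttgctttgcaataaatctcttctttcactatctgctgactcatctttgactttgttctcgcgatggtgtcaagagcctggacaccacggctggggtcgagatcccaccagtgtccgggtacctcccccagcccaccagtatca

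The first 300 bases of the earlier MER4-int copy and the whole MER41C copy held neither pattern, which says only that these letters are not in these windows. The last MER4-int copy of the window held AATAAA at positions 85 and 315, counted from 1 at its 5′ end. The chromosome 1 MER41E copy, antisense to CROCC, held TTCCGAGAA at position 267.

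The palindrome separated the MER41 subfamilies. Among copies of at least 300 bases it stood in the last 300 bases of 87.7% of 203 MER41B copies and 93.1% of 29 MER41E copies, but of 0.94% of 212 MER41A copies and 3.57% of 56 MER41C copies. In the first 300 bases, MER41C reached 51.8% and MER41E 75.9%. The windows overlap in shorter copies, so a single palindrome can count in both. The MER41E copy printed above, with 550 bases and its match at position 267, is such a case. The shares were 6.95% (first) and 7.74% (last) over 1395 MER4 group copies, and 9.80% and 8.41% over 13020 other ERV1 copies. Within the MER4 group, MER4A had the palindrome in the last 300 bases of 37.2% of 78 copies, against 1.73% of 173 MER4A1 copies. AATAAA stood in the last 300 bases of 60.1% of MER4 group copies, 53.9% of 720 MER41 group copies and 35.8% of the other ERV1 copies.

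**Figure D1:**
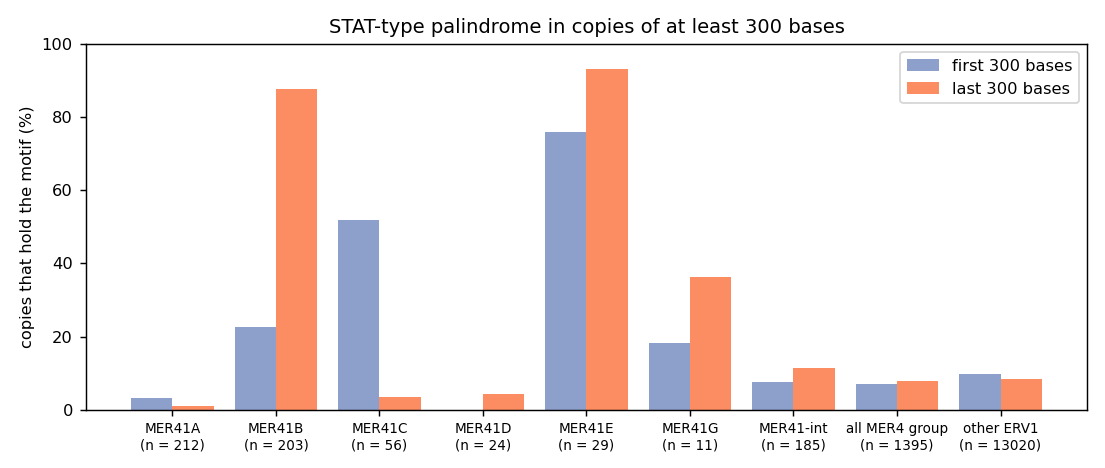
Share of copies of at least 300 bases (y axis, percent) that hold TTCNNNGAA in their first 300 bases (blue) or last 300 bases (orange), by subfamily or set (x axis, with the number of copies). MER41B and MER41E stand at 87.7% and 93.1% for the last 300 bases, and MER41A at 0.94%. The windows overlap in shorter copies, so a single match can count in both bars.

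Libraries held 15615675 to 33018360 aligned fragments, fewest in bulk control 3 and bulk control 2. Z18 itself, in FPKM (fragments per kb of transcript, scaled to library size), was 38.1, 13.9 and 48.7 in bulk control 1 to 3 against 10.4, 11.9 and 12.8 in bulk CRISPR. Among clones it was 23.5 and 22 with the WT genotype, 16.2, 17.1 and 16.1 with -/+ and 14.3, 14 and 8.70 with trunc/+. Bulk control 2 stood close to the edited populations. Of 11 melanocyte and melanoma markers, 6 averaged at least 1 FPKM, SOX10 (10.8 to 212) and AXL (34.9 to 158) among them, and MLANA and TYR were at 0 in all 14 libraries. The haematopoietic markers PTPRC (at most 0.030) and CD3E (at most 0.034) were near 0. Of the 5 fibroblast, 5 epithelial and 5 haematopoietic markers, 1 each averaged over 1 FPKM (LUM, KRT14 and LYZ). In bulk RNA, fewer cells that transcribe a copy and less RNA per cell cannot be told apart.

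RNA of the copies was rare. The 2822 copies together took 0.010 to 0.020% of the aligned fragments of a library, or 1559 to 5580 fragments, and 87.6 to 93.5% of these mapped uniquely. In each library 400 to 786 copies had signal, 1407 copies had signal in 1 library only and 45 had it in all 14. The median copy averaged 0.010 fragments per 1e+06 aligned fragments (CPM), while 227 copies averaged at least 0.1 CPM and 24 at least 1 CPM. The 10 copies with the highest mean held 11.1% (bulk control 3) to 28.0% (-/+ 3) of the CPM of all copies.

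Exons of other genes held more of that RNA than any other position. By GENCODE annotation, 241 copies (8.54%) overlapped an exon on their strand and held 52.4% of the summed CPM. Another 895 copies (31.7%) lay in introns and held 20.0%, 474 (16.8%) were antisense to a gene and held 6.04%, and 1212 (42.9%) were intergenic and held 21.6%. A fragment in an exon copy is also a fragment of its host gene. The exon share of MER4 group CPM was 34.9% in bulk control 3 and 46.9% in trunc/+ 3, and 52.7 to 61.9% in the other 12 libraries. Bulk control 3 was also lowest for the MER41 group, at 26.4% against 40.2 to 51.0% elsewhere. The part of this exon share in the results was not tested.

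**Figure D2:**
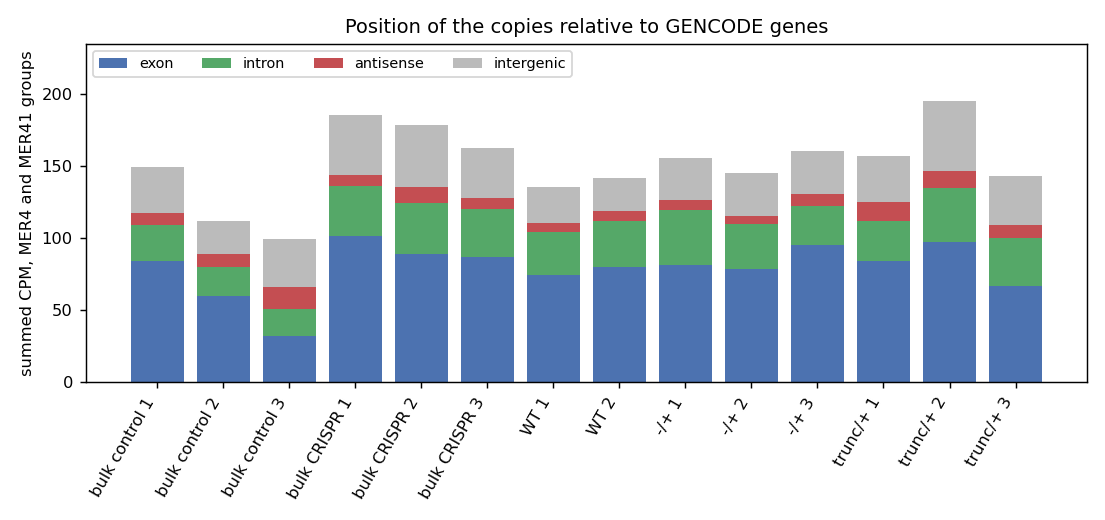
Summed CPM of all 2822 copies in each library (y axis), stacked by position relative to GENCODE genes. Exon copies form the largest block in every library except bulk control 3, where the intergenic block is as tall.

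The highest copy by mean CPM was a MER4A1_ LTR in an exon of GUF1, a mitochondrial translation factor (chr4:44700150-44700713, plus strand). It measured 9.94, 9.23 and 0.704 CPM in bulk control 1 to 3 and 17.0, 12.6 and 12.5 CPM in bulk CRISPR, and 5.83 to 9.98 CPM in the 8 clones. The groups did not overlap in the bulk experiment, with control 3 far below the other controls, and the difference did not pass (log2 fold change 1.08, SE 0.69, edgeR adjusted p = 0.530). GUF1 itself measured 16.0, 9.89 and 15.9 FPKM in the controls and 17.1 to 18.7 in bulk CRISPR.

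A MER4B-int copy in an exon of FAM111A, a protease gene linked to antiviral defence (chr11:59154458-59154703, plus strand), was higher per length, at 26.8 CPM per kb against 15.5 for the GUF1 copy. Its levels were 5.96, 1.24 and 0.320 CPM in the controls, 10.4, 5.36 and 5.26 in bulk CRISPR and 6.05 to 11.1 in the clones. The bulk groups overlapped, and control 3 was again lowest (log2 fold change 1.45, SE 0.76, adjusted p = 0.448). Without bulk control 1 the same copy passed (log2 fold change 3.13, adjusted p = 0.042). FAM111A as a whole gene measured 10.4 to 13.3 FPKM in the controls and 11.9 to 13.6 in bulk CRISPR.

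APOL6, a member of the interferon-inducible apolipoprotein L family, carries 7 of the copies within its exons on chromosome 22 (35662326 to 35668403). They follow one another as a MER4A1 LTR, 5 MER4-int pieces and a MER4B LTR, together 4969 bases. Their sum was 11.5, 9.82 and 9.48 CPM in bulk control 1 to 3, against 13.5, 15.6 and 14 in bulk CRISPR. It was 11.3 and 11.3 in the WT clones, 10.9, 8.67 and 18.0 in the -/+ clones and 10.1, 16.2 and 7.75 in the trunc/+ clones. Bulk CRISPR stood above every control, while the clone groups overlapped. The longest piece (chr22:35664582-35666273) was at 3.07 to 4.35 CPM in the controls and 5.53 to 6.55 in bulk CRISPR (log2 fold change 0.64, SE 0.46, adjusted p = 0.582). A shorter piece of the same exon (chr22:35663672-35664338) was at 1.76 to 2.24 and 1.51 to 2.06 CPM (log2 fold change -0.13, SE 0.53, adjusted p = 0.933). Neither passed, and the signs of these values were opposite.

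The other copies among the 10 highest were a MER4A in TRMU, a tRNA-modifying enzyme (chr22:46333167-46333725), a MER4A1 in the lncRNA ENSG00000253642 (chr8:34038684-34039132), a MER4B in JRK (chr8:142679419-142680003), a MER41-int in COQ7, a coenzyme Q biosynthesis gene (chr16:19079920-19081944), and neighbouring MER4-int and MER4A1 copies in SDHAP4 (chr3:197614453-197615925 and chr3:197614001-197614451). All lie in exons. Their bulk log2 fold changes ranged from -0.46 (JRK) to 0.86 (the SDHAP4 MER4A1), with adjusted p of 0.594 to 0.955. The JRK copy was 1.74 to 6.57 CPM in trunc/+ against 1.52 and 1.52 in WT (log2 fold change 1.29, SE 0.68, adjusted p = 1).

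Summed over all copies, the MER4 group was higher in bulk CRISPR than in bulk control. It summed to 108, 82.7 and 65.9 CPM in bulk control 1 to 3 (85.7 ± 21.4, SD, n = 3) and 147, 135 and 120.3 CPM in bulk CRISPR (134 ± 13.2, SD, n = 3). No control reached an edited population, and the log2 difference of means was 0.65 (0.49 without control 3, 0.85 without control 1). Other ERV1 loci differed by 0.49 (0.32 without control 3, 0.87 without control 1). There the groups overlapped, with control 1 (3022.26 CPM) just above the highest edited library (3021.21 CPM). All sense-strand TE loci differed by -0.09, with overlap (-0.25 without control 1, 0.06 without control 3). The summed level of the 5 fibroblast markers was 1.85 to 2.41 FPKM in bulk control and 5.40 to 7.06 in bulk CRISPR, without overlap, and 1.74 to 9.27 in the clones, while the melanoma, epithelial and haematopoietic sums overlapped between the bulk groups. Averaged over all libraries, LUM was at 3.94 FPKM and every other fibroblast marker at 0.452 or less. The part of these marker sums in the bulk results was not tested. The sums carry no test, since their members were chosen with earlier results of these libraries known.

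The MER41 group summed to 41.5, 29.7 and 33.9 CPM in the controls (35.0 ± 5.99, SD, n = 3) and 39.1, 44 and 42.5 CPM in bulk CRISPR (41.9 ± 2.49, SD, n = 3), with control 1 inside the edited range. The log2 difference was 0.26 (0.15 without control 2, 0.40 without control 1), and it was 0.02 when the library sizes were rescaled by TMM factors. That rescaling lowered the median log2 fold change of all tested loci from 0.27 to 0.06, and left the MER4 sum at 0.42.

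In the clones, the MER4 sum was 97.9 and 100.3 CPM in the WT clones (99.1 ± 1.74, SD, n = 2), 113, 103 and 121 in the -/+ clones (112 ± 8.98, SD, n = 3) and 109.7, 147 and 99.5 in the trunc/+ clones (119 ± 25, SD, n = 3). Only trunc/+ 2 stood above all other clones. The log2 difference of trunc/+ from WT was 0.26, but 0.08 without trunc/+ 2, and that of trunc/+ from -/+ was 0.08, turning to -0.10 without that clone. The -/+ clones stood 0.18 above WT with no overlap (0.10 under TMM factors). Other ERV1 loci differed by 0.41 for trunc/+ against WT (0.16 without WT 1, 0.71 without WT 2), 0.14 for -/+ against WT (-0.11 without WT 1) and 0.27 for trunc/+ against -/+, with overlap in each. All sense-strand TE loci differed by 0.11, 0.06 and 0.05.

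The MER41 sum was 37.5 and 41.5 CPM in the WT clones (39.5 ± 2.85, SD, n = 2), 43.3, 41.9 and 39.3 in the -/+ clones (41.5 ± 2.04, SD, n = 3) and 47.7, 48.5 and 43.8 in the trunc/+ clones (46.7 ± 2.54, SD, n = 3). The trunc/+ clones stood above both other groups without overlap, by 0.24 over WT and 0.17 over -/+. Leaving out the MER41C copy upstream of NUP50, a choice made after its values were seen, lowered these to 0.11 and 0.05, with overlap in both. The -/+ clones differed from WT by 0.07, which became -0.00 without WT 1 and -0.015 under TMM factors.

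**Figure D3:**
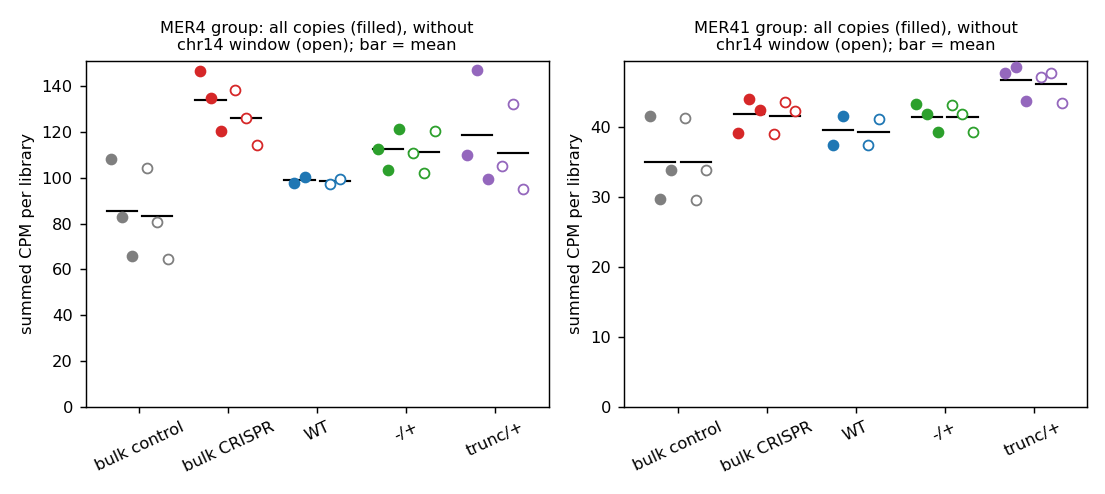
Summed CPM per library of the MER4 group (left) and MER41 group (right), by sample group, with all copies (filled points) and without the chromosome 14 window (open points); bars are group means. For the MER4 group, the 3 bulk CRISPR libraries lie at 120.3 to 147 CPM, above the 3 controls at 65.9 to 108 CPM, with the window left in.

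Removing the chromosome 14 window changed the MER4 sums little in bulk and more in the trunc/+ clones. Without it the log2 differences were 0.60 for bulk CRISPR against control, 0.17 for trunc/+ against WT and -0.00 for trunc/+ against -/+, from 0.65, 0.26 and 0.08 with it. For the MER4-int subfamily alone, they went from 0.43 to 0.24 in bulk and from 0.51 to 0.20 for trunc/+ against WT. In the latter, MER4-int without the window was at -0.07 once trunc/+ 2 was left out.

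No member subfamily passed the test between bulk groups, and none of the 945 subfamilies tested did so in either direction (edgeR, adjusted p under 0.05; background 0%). At an unadjusted p under 0.05, 5 of 20 member subfamilies were higher and 0 lower, against 17.2% and 2.33% of all subfamilies. DESeq2 also passed 0 of the 20, and 0.635% of all subfamilies in the higher direction. Without bulk control 1, 5 of 20 passed, all higher in bulk CRISPR: MER4A, MER4A1, MER41A, MER4D1 and MER4E1, with log2 fold changes of 1.01 to 1.53 (25%; background 15.3%). With no count minimum, 0 of 20 passed (background 0.0909%).

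Of the 8 member subfamilies with the highest mean CPM, 7 had a positive bulk value. MER4-int (439 copies, mean 32.2 CPM) was 28.2 ± 2.18 in bulk control and 38.1 ± 1.91 in bulk CRISPR (SD, n = 3 each), with no overlap (log2 fold change 0.43, SE 0.23, adjusted p = 0.307). MER4A, an LTR of 109 copies, was 6.62 ± 3.65 and 13.9 ± 2.41 CPM (log2 fold change 1.05, SE 0.40, adjusted p = 0.227), and MER4A1 8.74 ± 3.6 and 15.6 ± 1.58 CPM (0.83, SE 0.33, adjusted p = 0.227). MER4A1_ had a log2 fold change of 1.09 (SE 0.49, adjusted p = 0.247), MER4B-int 0.72 (SE 0.32, adjusted p = 0.247), MER41A 0.59 (adjusted p = 0.328) and MER4B 0.55 (adjusted p = 0.377). MER41-int, at 16.0 ± 1.71 and 13.8 ± 1.56 CPM, was the one with a negative value (-0.20, SE 0.25, adjusted p = 0.629). TMM factors moved the median log2 fold change of the 945 subfamilies from 0.36 to -0.02 and that of the 20 member subfamilies from 0.57 to 0.22. Under them MER4-int was at 0.0065 (0.011 with median-of-ratios factors), MER4A at 0.71, MER4A1 at 0.47, MER4B at 0.21 and MER41-int at -0.62, none past the threshold.

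Per length, the MER4A1_ subfamily (42 copies) had the highest level at 0.564 CPM per kb, followed by MER41G at 0.240 and MER4A at 0.204. MER4-int was at 0.090 and MER41-int at 0.061 CPM per kb. The GUF1 copy held 8.73 of the 11.2 CPM of MER4A1_.

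In the clones, no member subfamily passed in any of 3 comparisons (0 of 976 subfamilies in each by edgeR). DESeq2 passed 0 of 20 members, with a background of 0.102% for trunc/+ against WT and 0% in the other comparisons. MER41C, named after its values were seen, had the smallest p among trunc/+ comparisons. It was 2.52 ± 0.671 CPM in WT (SD, n = 2), against 2.32 ± 0.521 in -/+ and 6.36 ± 3.02 in trunc/+ (SD, n = 3 each), with log2 fold changes of 1.34 over WT (SE 0.42, adjusted p = 0.953) and 1.46 over -/+ (SE 0.37, adjusted p = 0.708). Without the copy upstream of NUP50, a choice made after seeing the data, MER41C was 2.45 ± 0.569 CPM in the WT clones, 2.10 ± 0.357 in the -/+ clones and 2.34 ± 0.852 in the trunc/+ clones, with log2 differences of means of -0.07 and 0.15. MER4-int had 0.51 over WT (SE 0.31, adjusted p = 0.953), and its trunc/+ values of 26.7, 54.7 and 31.8 CPM show that trunc/+ 2 alone lay far above WT (28.7 and 24.4).

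At the level of copies, 70 of the 2822 (52 MER4, 18 MER41) had enough counts to be tested in bulk and 122 (85 and 37) in the clones. The rest were too low. No tested copy passed by edgeR in any of the 4 comparisons. Of all loci, 0 of 14031 were higher and 1 was lower in bulk (0.00713%), and 0 of 21634 differed in each clone comparison. In simulated counts with 4-fold changes at these depths, the same procedure recovered 59.5% of changed loci in bulk. It recovered 19.8% for trunc/+ against WT, 19.4% for -/+ against WT and 42.0% for trunc/+ against -/+. Of the simulated loci called, 3.85%, 8.33%, 0% and 5.33% were unchanged, in the same order. Every simulated locus had the same fixed spread, which was not estimated from these libraries. These shares therefore do not give the power of the tests in these data.

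At an unadjusted p under 0.05, 10 of the 70 copies were higher in bulk CRISPR (14.3%; background 7.9%) and 1 was lower (1.43%; background 4.47%). Of the 10, 2 lie in the chromosome 14 window, which leaves 8 of 66 (12.1%). DESeq2 passed 0 of 70, with 0.72% of all loci higher. The libraries of 16 copies stood all above (22.9%; background 17.7%) and those of 1 copy all below (1.43%; background 6.42%) the controls. Of the 16, 2 lie in the window, which leaves 14 of 66 (21.2%). The median log2 fold change was 0.75 over the 70 copies and 0.27 over all 14031 loci, or 0.57 and 0.06 under TMM factors. With aligned fragments it was 0.82 for MER4 copies, 0.49 for MER41 copies, 0.65 for the 48 exon copies, and 1.43 for the 9 intron copies. Copies that reached the count minimum only through bulk CRISPR are among these, so these counts describe tested copies and not the 2822.

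The 5 copies with the smallest p in bulk were 4 higher and 1 lower. The first was a MER4A1_ LTR on chromosome 8 (29330136 to 29330645, minus strand), 2.42 kb beyond DUSP4, a MAP kinase phosphatase gene on the same strand. It measured 0.375, 0.108 and 0 CPM in the controls and 1.67, 0.897 and 1.5 in bulk CRISPR, where every edited library lay above every control (log2 fold change 2.91, SE 0.90, adjusted p = 0.246; 4.44 without control 1). DUSP4 measured 74.4, 44 and 71.8 FPKM in the controls and 97.1, 91.5 and 95.8 in bulk CRISPR (limma log2 difference 0.61, SE 0.25, adjusted p = 0.218).

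A MER4A LTR in an exon of ZNF320, a zinc-finger gene on chromosome 19 (52877174 to 52877758), measured 1.01, 0.108 and 0.192 CPM in the controls and 2.63, 2.40 and 2.22 in bulk CRISPR. The edited libraries again stood above all controls (log2 fold change 2.39, SE 0.75, adjusted p = 0.254), and the copy passed without bulk control 1 (3.99, adjusted p = 0.032). Another MER4A LTR lies in an intron of ZNF83 on the same chromosome (52641715 to 52642261) and measured 0.525, 0.270 and 0.256 against 1.57, 1.92 and 1.01 CPM (log2 fold change 2.05, SE 0.69, adjusted p = 0.289). Their host genes had log2 differences of 0.72 (ZNF320, SE 0.27, adjusted p = 0.206) and 0.87 (ZNF83, SE 0.37, adjusted p = 0.236). In the clones the ZNF320 copy stayed at 0.502 to 1.08 CPM, with log2 fold changes of 0.23 for trunc/+ and -0.23 for -/+ against WT.

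A MER4A1 copy on chromosome 1 (149227927 to 149228353) had a log2 fold change of 2.90 (SE 0.90, adjusted p = 0.246), but only 26.3% of its fragments mapped uniquely, so its place among near-identical copies is uncertain. The lower copy was a MER41-int in an exon of the lncRNA CCDC144NL (chr17:20863724-20864177), at 0.787, 1.35 and 1.02 CPM in the controls and 0.142, 0.352 and 0.219 in bulk CRISPR, with no overlap (log2 fold change -2.12, SE 0.76, adjusted p = 0.306). CCDC144NL was at 0.969 to 1.34 FPKM and 0.432 to 0.556 FPKM in the same groups.

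The chromosome 14 window holds 10 of the copies on the plus strand within 7.49 kb: a MER41A LTR, 7.1% diverged from its consensus, and 9 MER4-int pieces at 13.6 to 24.7%. The copies are 100 to 731 bases long. All are intergenic, between CDCA4 and GPR132. The study singled out this locus from these libraries, so its differences are not independent evidence, and since a transcript can cross several pieces, the copies are not replicates of each other. The nearest other members were a MER4C 28.1 kb upstream on the minus strand and a MER4A1 19.5 kb downstream on the plus strand.

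The window summed to 4.05, 2.27 and 1.34 CPM in the 3 controls (2.55 ± 1.38, SD, n = 3) and 8.61, 9.17 and 6.02 CPM in bulk CRISPR (7.94 ± 1.68, SD, n = 3). It summed to 0.541 and 1.05 in the WT clones (0.798 ± 0.363, SD, n = 2), 1.89, 1.12 and 1.09 in the -/+ clones (1.37 ± 0.455, SD, n = 3) and 4.98, 15.5 and 4.79 in trunc/+ (8.41 ± 6.11, SD, n = 3). Bulk CRISPR and trunc/+ stood above their controls without overlap, and the lowest -/+ clone lay just above the higher WT clone. The log2 differences were 1.64 in bulk (1.33 to 2.14 with single libraries left out), 3.40 for trunc/+ against WT (2.61 without trunc/+ 2, 3.96 without WT 2), 0.78 for -/+ against WT (0.37 without WT 1, 1.34 without WT 2) and 2.62 for trunc/+ against -/+ (1.84 without trunc/+ 2). Uniquely mapped fragments alone gave 1.75, 3.37, 0.75 and 2.62. The window made up 1.88 and 2.92% of MER4-int RNA in WT, 2.96 to 6.71% in -/+, 14.2 to 26.7% in trunc/+, 4.43 to 13.8% in bulk control and 16.3 to 22.5% in bulk CRISPR.

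**Figure D4:**
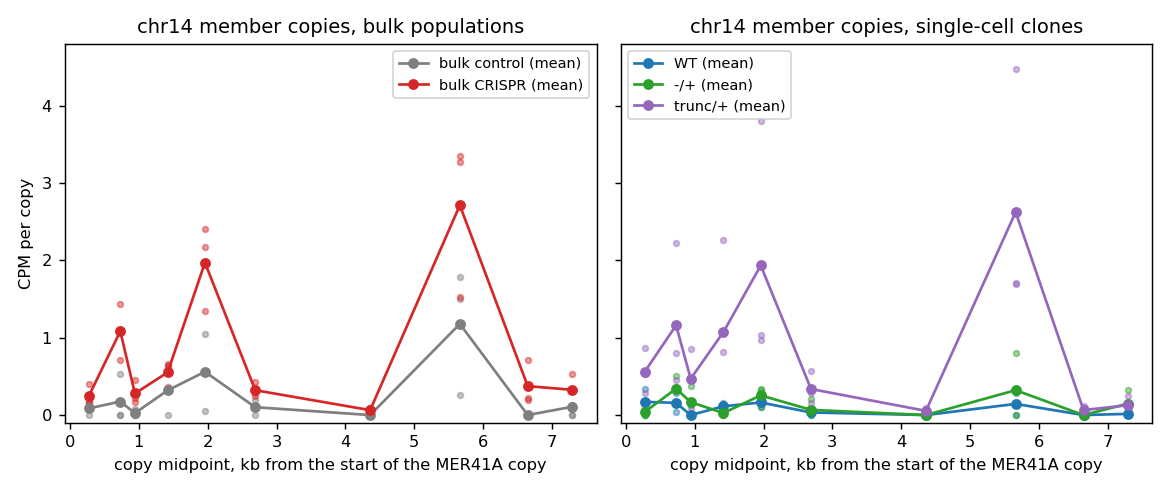
CPM of each of the 10 chromosome 14 copies (y axis) against the distance of its midpoint from the start of the MER41A copy (x axis, kb), in bulk (left) and in the clones (right); small points are libraries, large points group means, and lines join means only to guide the eye. The MER4-int copies near 2 and 5.7 kb are the highest in bulk CRISPR and in trunc/+, and trunc/+ 2 gives the uppermost points at both.

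The MER4-int copy near 2 kb, whose first 300 bases are printed above (chr14:105034048-105034778), measured 1.05, 0.054 and 0.576 CPM in the controls, against 2.17, 2.40 and 1.34 in bulk CRISPR. Among clones it had 0.108 and 0.217 with the WT genotype, 0.322, 0.107 and 0.335 with -/+ and 0.969, 3.81 and 1.03 with trunc/+. All trunc/+ clones lay above all others, with log2 fold changes of 3.52 over WT (SE 0.86, edgeR adjusted p = 1) and 2.88 over -/+ (SE 0.71, edgeR adjusted p = 0.9999). In bulk the log2 fold change was 1.78 (SE 0.77, adjusted p = 0.374).

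The copy near 5.7 kb (chr14:105037813-105038415) measured 1.5, 1.78 and 0.256 CPM in the controls, against 3.35, 3.27 and 1.53 in bulk CRISPR. Among clones it had 0.289 and 0 with the WT genotype, 0.805, 0.160 and 0 with -/+ and 1.70, 4.47 and 1.71 with trunc/+. The bulk groups overlapped and trunc/+ did not overlap either other clone group. Its log2 fold changes were 1.18 in bulk (SE 0.67, adjusted p = 0.485), 4.19 over WT (SE 1.33, adjusted p = 1) and 2.98 over -/+ (SE 1.04, adjusted p = 0.9999). With no count minimum, both clone differences passed (edgeR adjusted p = 0.0042 and 0.041). In that fit, over 411582 loci, the SEs were 0.85 and 0.67, below those with the minimum.

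A copy further upstream (chr14:105033004-105033364) measured 0.525, 0 and 0 CPM in the controls and 0.715, 1.10 and 1.44 in bulk CRISPR (log2 fold change 2.44, SE 1.06, adjusted p = 0.374), and passed without bulk control 1 (adjusted p = 0.037; 3 of 97 copies and 3.09% in that setting, background 1.47%). It was 0.036 and 0.279 in WT and 0.451, 2.23 and 0.802 in trunc/+ (log2 fold change 2.82, SE 0.98, adjusted p = 1). The copy at chr14:105033695-105034048 measured 0.081, 0 and 0 CPM in -/+ and 0.818, 2.26 and 0.142 in trunc/+. It passed with no count minimum (edgeR adjusted p = 0.039), where the SE was 1.11, against 1.26 with the minimum. The copy at chr14:105033333-105033459 was at 0 in both WT clones, and its mean in -/+ (0.166 CPM) was at least 3.32-fold and in trunc/+ (0.470 CPM) at least 9.39-fold above the level of 3 counts over the WT group.

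The remaining 4 MER4-int copies reached at most 0.712 CPM and were tested in no comparison. The downstream MER4A1 outside the window was at 0.391, 0.256 and 0.593 CPM in bulk CRISPR against 0.037, 0.162 and 0 in the controls, but at 0 in every clone except trunc/+ 3 (0.142).

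In trunc/+ against WT, 9 of 122 tested copies were higher (7.38%; background 2.61%) and 1 lower (0.82%; background 1.47%) at an unadjusted p under 0.05. Of the 9, 5 are pieces of the chromosome 14 window, which leaves 4 of 116 (3.45%). DESeq2 passed 1 copy (0.82%; background 0.0139%), the MER41C copy upstream of NUP50 (adjusted p = 0.012). Libraries of 14 copies stood all above WT (11.5%; background 9.66%) and of 8 all below (6.56%; background 10.7%). Of the 14, 4 are pieces of the window, which leaves 10 of 116 (8.62%). In trunc/+ against -/+, 8 copies were higher (6.56%; background 1.91%) and 1 lower (0.82%; background 1.82%). Of these 8, 5 are pieces of the window, which leaves 3 of 116 (2.59%). In -/+ against WT 1 copy, a piece of the window, was higher (0.82%; background 1.83%) and 0 lower (background 0.795%). Libraries of 6 copies stood all above -/+ (4.92%; background 4.09%) and of 5 all below (4.1%; background 5.09%) in trunc/+. Of the 6, 4 are pieces of the window, which leaves 2 of 116 (1.72%). For -/+ against WT it was 8 above (6.56%; background 9.6%) and 5 below (4.1%; background 7.9%). DESeq2 passed 0 copies in trunc/+ against -/+ and in -/+ against WT. With no count minimum, 3 of 1933 copies passed for trunc/+ against WT (0.155%; background 0.0221%) and 3 against -/+ (0.155%; background 0.0124%), and 0 passed for -/+ against WT (background 0.00802%) and in bulk (0 of 1854; background 0.00157%). Median log2 fold changes were 0.33, 0.14 and 0.22 over the copies, against 0.07, -0.04 and 0.10 over all loci. Both trunc/+ comparisons share the trunc/+ clones and both WT comparisons share the WT clones. Copies that reached the count minimum only through trunc/+ are among the 122, so these counts describe tested copies only. An example is the chromosome 18 MER4-int described below, at 0 in all WT and -/+ clones.

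The MER41C copy lies on the plus strand of chromosome 22 (45162545 to 45162810), antisense to the lncRNA NUP50-DT and 1115 bases before the start of NUP50, a nuclear pore gene on the plus strand. It measured 0.144 and 0 CPM in the WT clones, 0.040, 0.160 and 0.461 in the -/+ clones and 8.01, 3.77 and 0.285 in the trunc/+ clones. In trunc/+ 1 and trunc/+ 2 it was far above every other clone, while trunc/+ 3 lay within the -/+ range. The log2 fold change was 5.79 over WT (SE 1.46, edgeR adjusted p = 1) and 4.16 over -/+ (SE 1.10, edgeR adjusted p = 0.9999). With no count minimum both passed (edgeR adjusted p = 2.4e-07 and 1.8e-06). That fit shared its estimate of spread over 411582 loci, and its SEs were 0.86 and 0.65. With trunc/+ 3 within the -/+ range, p-values this small understate the spread between these clones. In bulk it was 0.262, 0.243 and 0.128 CPM in the controls and 0.605, 1.12 and 1.15 in bulk CRISPR, with no overlap (log2 fold change 2.08, SE 0.79, adjusted p = 0.323).

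Its neighbours, looked at after these values were seen, had the same order of clones. The LTR7Y copy that ends directly before it was at 1.82, 0.323 and 0 CPM in trunc/+ 1 to 3 and at most 0.084 in the other clones. The AluSx copy after it was at 6.34, 1.33 and 0.142 CPM and at most 0.320. NUP50 itself was at 83.2, 45.9 and 24.0 FPKM in trunc/+, 21.7 and 22.8 in WT and 25.9 to 26.5 in -/+ (limma log2 difference over WT 0.99, SE 0.42, adjusted p = 0.656). NUP50-DT, the lncRNA that overlaps the copy on the other strand, had the same order within trunc/+, at 9.61, 5.03 and 4.56 FPKM. It was at 7.35 and 4.22 in WT and 3.87 to 6.78 in -/+. Of the trunc/+ clones, only trunc/+ 1 lay above all WT and -/+ clones (limma log2 difference over WT 0.10, SE 0.35, adjusted p = 0.961). The next genes, KIAA0930 (3.09, 8.14 and 6.13 FPKM in trunc/+, 6.58 and 5.69 in WT) and FAM118A (2.78, 3.14 and 2.63 against 3.64 and 3.6), did not have this order.

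**Figure D5:**
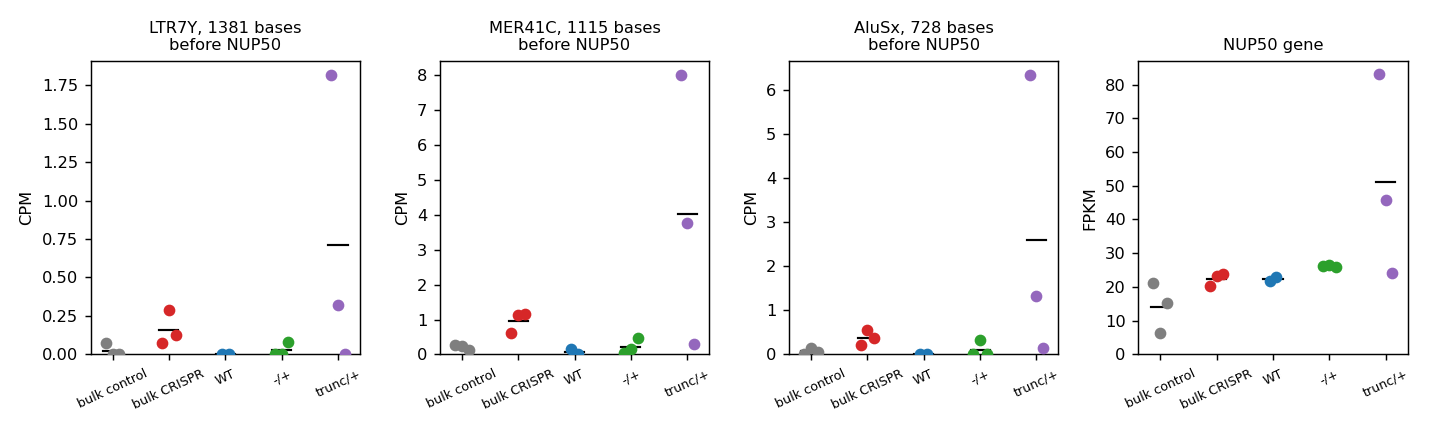
Levels of the LTR7Y, MER41C and AluSx copies before NUP50 (CPM) and of NUP50 (FPKM) in each library, by group; points are libraries and bars group means. In each panel trunc/+ 1 is the highest of all libraries and trunc/+ 2 the next, and trunc/+ 3 lies with the other clones.

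Of the other copies with the smallest p in the clones, a MER4-int on chromosome 18 (14506461 to 14507004, minus strand), 335 bases beyond POTEC on the same strand, was at 0 in all WT and -/+ clones and at 0.697, 0.989 and 0 CPM in trunc/+. The trunc/+ mean was at least 11.2-fold above the level of 3 counts over the WT group and 12.6-fold above that over -/+. POTEC was at 0.688, 0.894 and 0 FPKM in trunc/+ and at 0 in WT and -/+, and both were above 0 in all 6 bulk libraries. A MER4E1 in an exon of ARHGAP29 (chr1:94148960-94149728) was at 0 and 0.031 CPM in the WT clones, 0, 0.053 and 1.05 in the -/+ clones and 0.273, 2.84 and 0 in the trunc/+ clones, so that 1 clone carried each group's level. ARHGAP29 varied likewise, from 1.19 to 53.0 FPKM over the clones. A MER4D1 on chromosome 16 (29512779 to 29512979) was at 0.353 and 1.06 CPM in WT and 0, 0 and 0.041 in trunc/+, with 1.13% of its fragments uniquely mapped.

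For -/+ against WT, the smallest p values outside the window belonged to a MER4E on chromosome 3 (191805937 to 191806681; 0.361 and 0.062 CPM in WT, 0.483, 0.534 and 0.795 in -/+; log2 fold change 1.51, SE 0.88), a MER4-int on chromosome 2 (112860401 to 112863078; log2 fold change -1.38, SE 0.81) and a MER4D0 in an intron of COMMD1 (chr2:62144629-62145528; 1.65, SE 1.07). All had an adjusted p of 1.

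The LTR printed above with the palindrome was low. This MER41E copy was at 0.596 and 0.279 CPM in WT and at most 0.160 in the other 6 clones. In bulk it measured 0.037, 0.971 and 0 CPM in the controls and 0, 0.160 and 0.343 in bulk CRISPR, with overlap.

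MER41 copies are known next to interferon-induced genes, so 8 genes of that response were read beside them. In bulk, 7 of the 8 could be tested and 1 was lower in bulk CRISPR (background 0.157%) and 0 higher (background 0.19%). It was IFI6, an interferon-induced mitochondrial protein, at 427, 1188 and 1424 FPKM in the controls and 19.8, 16.7 and 17.5 in bulk CRISPR (limma log2 difference -5.57, SE 0.42, adjusted p = 0.0024). The 8 clones had 16.9 to 32.4 FPKM, so the 3 controls stood apart from the other 11 libraries. IRF9, a subunit of the interferon-activated factor ISGF3, was at 18.2, 10.7 and 13.2 against 4.71, 4.04 and 4.48 FPKM (-1.45, SE 0.26, adjusted p = 0.079), with every control above all edited libraries. In the clones 0 of 8 passed by limma (background at most 0.00775% in either direction), although IRF9 had 2.66 and 2.81 FPKM in WT and 9.33, 12.4 and 4.81 in trunc/+ (1.32, SE 0.32, unadjusted p = 0.0040, adjusted p = 0.536).

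IFI6 was lower in bulk CRISPR, and the MER41 sum was 41.9 ± 2.49 CPM there against 35.0 ± 5.99 CPM in the controls (SD, n = 3 each). A link between these genes and the copies was not tested. The nearest sense-strand MER41 copy with signal lay 463 kb (IRF1) to 3522 kb (IRF9) from these genes.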

How the data were processed

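PolyA-selected, stranded paired-end RNA-seq of 14 A375 libraries was used, with groups taken from the submitters' genotype labels. The authors trimmed reads with cutadapt 4.6 (submitters' processing notes), mapped them to hg38 and assigned them to RepeatMasker copies with SQuIRE (version not given in the sources used here) in 1 table per library. In the tables as deposited, estimated counts per copy and transcript strand include multi-mapped fragments shared out by expectation maximization, and deposited counts of uniquely mapped fragments served as an alternative. Shared-out fragments make levels of near-identical copies uncertain. The divergence score was deposited with each copy as RepeatMasker gave it. The authors made FPKM values per RefSeq gene with StringTie. No column was left without a sample (0).

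Estimated counts were divided by aligned fragments (CPM). For tests, they were rounded and fitted over all sense-strand loci, or over subfamily sums, with edgeR 4.0.16 (quasi-likelihood, filterByExpr with a minimum count of 10, aligned fragments as library size, Benjamini-Hochberg adjustment over all features, two-sided), separately for 6 bulk libraries and 8 clones. Gene tests used limma 3.58.1 (trend) on log2(FPKM + 1), with FPKM of at least 1 in 3 bulk libraries or 2 clones, so fold changes of low genes are understated. DESeq2 1.42.0, TMM and median-of-ratios scaling, no count minimum, unique counts, a pseudocount of 0.1, quantile scaling, a replicate block and leaving out each library were alternatives. Positions came from GENCODE release 44. Scripts were tested on simulated data. Intervals were not given, and the level of 3 counts used for groups at 0 covers counting error only.

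Copies named were the 10 with the highest mean CPM, the 5 with the smallest p per comparison (or all called) and all in the chromosome 14 window. Subfamilies named were the 8 with the highest mean CPM, and genes were Z18, the interferon list and hosts or neighbours of named copies. The copies, lists and window were chosen with earlier results of these data known. Some items withheld for evaluation are not reported here.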

Additional observations from a re-analysis of the deposited data

Results flagged for a closer look

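RNA read from the opposite strand of MER4 copies is outside the comparisons above. Over the 338 MER4 copies with rows on both strands it averaged 25.2 CPM in bulk CRISPR (26.0, 25.3 and 24.2), above each bulk control (23.6, 15.0 and 22.8). Over all 2140 MER4 copies with antisense rows the groups overlapped, at 79.9, 91.8 and 75.4 against 75.9, 46.1 and 84.8 CPM, and the difference was not tested.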

How the results depend on the processing

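Of the counts of calls and the differences of sums, 214 values under an alternative moved by less than the spread between replicates (1 SD; for counts, by at most 1.5 times) and 12 moved further. Among the 214 were 4 changes of sign, all in small differences: the MER4 sum for trunc/+ against -/+ went from 0.08 to -0.10 without trunc/+ 2 and to -0.00 without the chromosome 14 window, and the MER41 sum for -/+ against WT went from 0.07 to -0.00 without WT 1 and to -0.015 under TMM scaling. For single copies and subfamilies, 347 values stayed on their side of the threshold or within that spread and 10 newly passed it. The other 2 were the MER41C sums without the chromosome 22 copy, at -0.07 for trunc/+ against WT (a change of sign) and 0.15 for trunc/+ against -/+. Leaving out single libraries gave 0 to 3 member copies, 0 to 5 member subfamilies and 1 to 2 interferon genes called in bulk, the upper value each time without bulk control 1 (for the genes, IRF9 joined IFI6). Calls of copies went from 0 to 1 for trunc/+ against WT with DESeq2, to 3 with no count minimum, and to 3 for trunc/+ against -/+ with no count minimum. Quantile scaling and the replicate block each gave 2 interferon genes in bulk. TMM scaling moved the MER4 sum difference of -/+ against WT to 0.098 and the MER41 sum difference in bulk to 0.021. Without the chromosome 22 MER41C copy, a setting chosen after seeing the data, the MER41 sum differed by 0.11 for trunc/+ against WT and 0.047 for trunc/+ against -/+. The cause of each move was not tested. Libraries with the same number in the 2 bulk groups deviated with correlations of -0.10, -0.18 and 0.13, so the numbers do not pair them, and with the replicate block 0 member copies and 0 subfamilies passed in any comparison. At 15615675 to 33018360 aligned fragments, most copies had too few counts for any test.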
